A study of Mus musculus with 4 samples.

Results

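Natural antisense lncRNAs are long transcripts without a known protein product that are read from the DNA strand opposite to another gene and overlap that gene. A microarray probe carries the sequence of 1 strand, so that the transcripts of both strands are measured apart. Some such RNAs are known to act close to where they are made, on the chromatin or the transcript of the overlapping gene. Some are known from imprinted genes and from the homeobox clusters. Osteoclasts, the bone-resorbing cells, form from precursors of the monocyte and macrophage lineage when RANKL, the ligand of the receptor RANK, acts on them together with M-CSF, the growth factor that keeps these precursors alive. The 420 natural antisense lncRNAs described here were taken from 3937 lncRNA transcripts in the up and down lists of the study for 24, 72 and 96 h. They were selected on measured change, since each list holds lncRNAs past 2-fold against 0 h, and mostly on rises. The lists are held in part, and most of the falls that the paper reports are missing from them. All 420 had natural antisense as their only stated relation to a neighbouring gene, and each was well above background, as the scanner software marked it, on at least 1 array. The requirements on background and on pseudogene names removed 0 of them. A further 37 listed transcripts had natural antisense beside another relation and were kept out.

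RNA came from RAW264.7 cells, a mouse macrophage line, which received RANKL at 100 ng/ml and M-CSF at 50 ng/ml for 0 h (called monocyte in the labels), 24 h (pre-osteoclast), 72 h (mature osteoclast) and 96 h (activated osteoclast). One 1-colour array of 60804 probes was hybridised for each of the 4 time points, so no difference below has a replicate check and no p-value is given. The first number of the array barcode, as the scanner software recorded it, was 1 at 0 and 72 h and 2 at 24 and 96 h. Whether it marks a slide or a position on a slide was not established, so the arrays are called those of barcode 1 and barcode 2. Only 72 h against 0 h and 96 h against 24 h are comparisons within a barcode. In the others barcode and time cannot be told apart. Probes for the defining genes of macrophages and osteoclasts carry no gene name in the files used here, and the cell stage was therefore not checked with markers. RAW264.7 is a tumour-derived line and not a primary precursor, which limits it as a model of bone.

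Values are log2 of the quantile-normalised signal. The 0 h array measured 232 of the 420 natural antisense lncRNAs well above its background, the 24 h array 272, the 72 h array 298 and the 96 h array 346. Over all probes these numbers were 37883, 35764, 36311 and 40593. All 4 arrays measured 192 of the members, 3 arrays measured 44, 2 arrays 64, and 120 were above background on 1 array alone. A value that was not well above background was raised to the lowest value of any probe that was, the floor of that array. In order of time the floors were 4.81, 5.17, 5.15 and 4.41. The log2 values printed below are those before this step, so a value under the floor is not a measured level. A change with 1 side at the floor is a lower bound and is written as at least. The scanner software gives each spot an error, and for members well above background its median was 0.17 log2 units on each of the 4 arrays, so that a change between 2 arrays had a median error of 0.23. This error covers the spot and not the culture.

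The probe sequences below belong to the members on which the results turn. The first lines show members measured by several probes, and capitals mark the run of bases that 2 or more probes of the same symbol share, so these probes read almost the same RNA. The next lines show a choice of other members described below, not a ranking, and they hold no capitals. Each probe is the 60-base sequence given in the lists, in the orientation of the RNA.
D430036J16Rik (NR_040393): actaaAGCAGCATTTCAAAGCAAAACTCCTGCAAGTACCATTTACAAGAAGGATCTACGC
D430036J16Rik (NR_040394): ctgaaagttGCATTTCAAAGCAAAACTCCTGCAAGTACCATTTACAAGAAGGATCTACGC
D430036J16Rik (NR_040395): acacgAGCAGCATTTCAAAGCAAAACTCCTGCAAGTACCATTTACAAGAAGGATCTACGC
1810062O18Rik (ENSMUST00000124940): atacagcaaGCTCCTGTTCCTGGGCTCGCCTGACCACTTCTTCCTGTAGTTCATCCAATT
1810062O18Rik (ENSMUST00000128848): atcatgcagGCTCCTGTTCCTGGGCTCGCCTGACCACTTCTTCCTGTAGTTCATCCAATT
1810062O18Rik (ENSMUST00000142099): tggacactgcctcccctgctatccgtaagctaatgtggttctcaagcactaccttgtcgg
Hoxa11os (ENSMUST00000156515): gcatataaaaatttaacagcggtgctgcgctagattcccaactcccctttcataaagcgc
Hoxa11os (NR_015348): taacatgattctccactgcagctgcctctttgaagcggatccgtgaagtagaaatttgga
Gm17098: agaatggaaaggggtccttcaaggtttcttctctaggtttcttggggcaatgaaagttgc
Gm17089: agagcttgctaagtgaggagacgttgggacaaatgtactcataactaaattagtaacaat
Bach2os: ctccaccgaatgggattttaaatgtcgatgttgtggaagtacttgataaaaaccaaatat
AK052417: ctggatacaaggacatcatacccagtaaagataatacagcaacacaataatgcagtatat
AK131850: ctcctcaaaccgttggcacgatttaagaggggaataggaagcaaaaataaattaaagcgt
Gm15471: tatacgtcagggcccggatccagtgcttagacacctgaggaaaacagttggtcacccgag
AK053163: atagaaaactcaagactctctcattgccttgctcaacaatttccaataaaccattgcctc
Nespos: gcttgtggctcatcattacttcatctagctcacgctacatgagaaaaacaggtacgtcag
AK052226: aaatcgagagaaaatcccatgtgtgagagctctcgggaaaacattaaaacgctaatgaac
1700071M16Rik: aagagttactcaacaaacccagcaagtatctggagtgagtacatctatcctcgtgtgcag
AK133228: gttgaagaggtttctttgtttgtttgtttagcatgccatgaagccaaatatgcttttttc

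The longest run shared by the D430036J16Rik probes is 55 bases, and 51 bases are shared by the first pair of 1810062O18Rik probes, while the third 1810062O18Rik probe and the Hoxa11os probes share no such run. The median GC content of the 420 probes was 41.7%, against 43.3% over the 3480 listed lncRNAs of other relations. It was 38.3% for the 195 members highest at 72 h, 41.7% for the 85 highest at 24 h and 43.3% for the 137 highest at 96 h. Among the other listed lncRNAs the same medians were 41.7%, 43.3% and 43.3%. The part of base composition in the differences between arrays was not tested.

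On the quantile-normalised values more natural antisense lncRNAs were past 2-fold higher at 72 h than at 24 or 96 h, where the list of rises at 96 h is held in part. Of 315 measured at 72 or 0 h, 154 lay 2-fold or more above 0 h. Below it by as much were 3, namely AK053163, Gm15726 and 3110045C21Rik. Over all probes 4.34% were higher and 5.29% lower. At 24 h, 85 of 297 were higher and 9 lower, where all probes gave 3.40% higher and 6.09% lower. At 96 h, 114 of 352 were higher and 20 lower, where all probes gave 5.72% and 8.37%. Since the lists were chosen by these same contrasts, the excess of rises over the background is a product of the choice and nothing is read from it. In order of time the median log2 changes of the measured members were 0.57, 0.95 and 0.44, beside 0.10, 0.05 and 0.06 over all probes measured. When signals were scaled to the 75th percentile of each array, the members' median at 72 h was 0.67 and that at 96 h was 0.59. With this scaling 111 members were higher at 72 h and 127 at 96 h, and with scaling to the median of the probes measured on all arrays 113 and 120, so the order of 72 and 96 h turned.

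**Figure D1:**
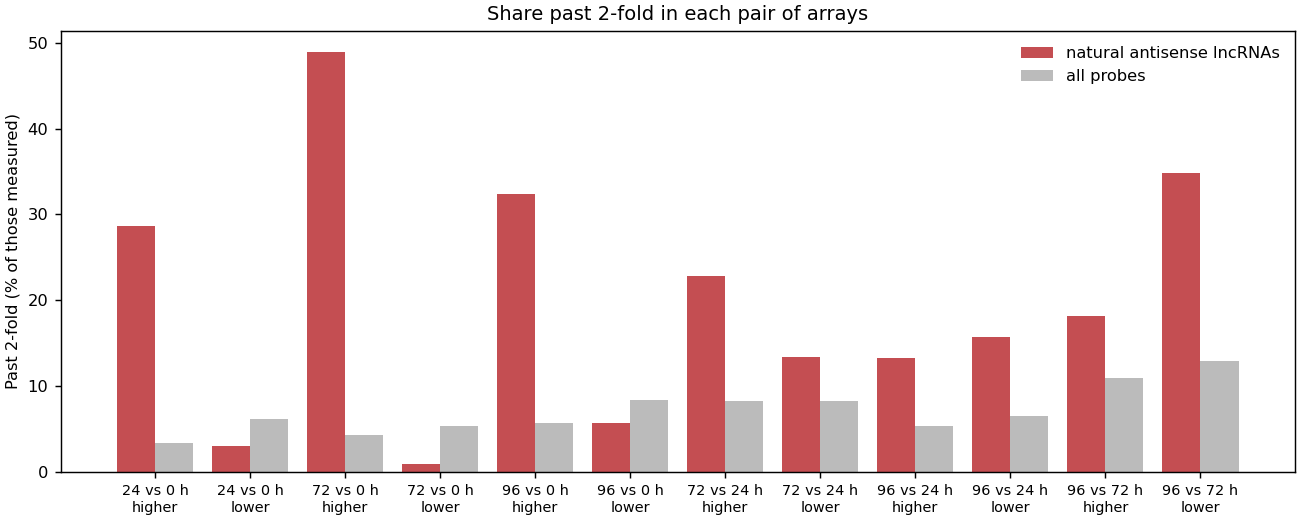
Bars give the percentage of measured natural antisense lncRNAs (red) and of all measured probes (grey) that were at least 2-fold higher or lower in each pair of the 4 arrays. The members were chosen by their change against 0 h, so the first 6 pairs of bars show the choice, with 48.9% of members higher at 72 h beside 4.34% of all probes.

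Many changes lay close to the limit. Of the 526 entries that members have in the lists, all were past 2-fold in the log2 table, which follows from the limit of the lists. The entries just inside were AK085074 at 1.00 and Gm14023 at 1.00, both at 96 h. Values of natural antisense transcripts just outside the lists were not analysed here, because no file pairs unlisted probes with names. Among members well above background on both arrays, 123 had risen at 72 h, and 65 of them were past the limit by more than 1 error of the change. At 24 h this held for 24 of 55 and at 96 h for 48 of 86. The dimmest of the members, by their best value above background, were Gm15444 at 4.44, AK088428 at 4.47 and uc.217 at 4.51, all on the 96 h array.

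The members differed in the array on which they were highest. On the array values as given, 195 of 419 members with 4 usable values were highest at 72 h, which is 46.5%, beside 28.9% of all probes above background on at least 1 array. The 96 h array was highest for 137 members, or 32.7%, beside 32.6% of all probes. The 24 h array was highest for 85, or 20.3%, beside 24.1%, and the 0 h array for AK006171 and Gm26723, 2 members or 0.477%, beside 14.4%. The low number at 0 h follows from the lists, which hold rises. At 24, 72 and 96 h alike, 3 members were past 2-fold higher, AK049961, AK032281 and 1 Gm12300 probe, beside 0.109% of all probes. Of the others, 138 were higher at 72 h alone, 72 at 96 h alone and 47 at 24 h alone, beside 3.50%, 4.22% and 1.84% of all probes. A further 31 were higher at both 24 and 96 h, the arrays of barcode 2, beside 1.01% of all probes. At both 72 and 96 h, 8 were higher (0.227% of all probes), and at both 24 and 72 h 4 were, namely 6330418K02Rik, AK016706, AK082249 and Gm17259 (0.139%). As the lists hold rises, nothing is read from these shares. The list of rises at 96 h is held in part, and 219 members were listed as higher at 72 h and 157 at 96 h. The numbers highest at 72 and 96 h therefore follow the lists too.

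**Figure D2:**
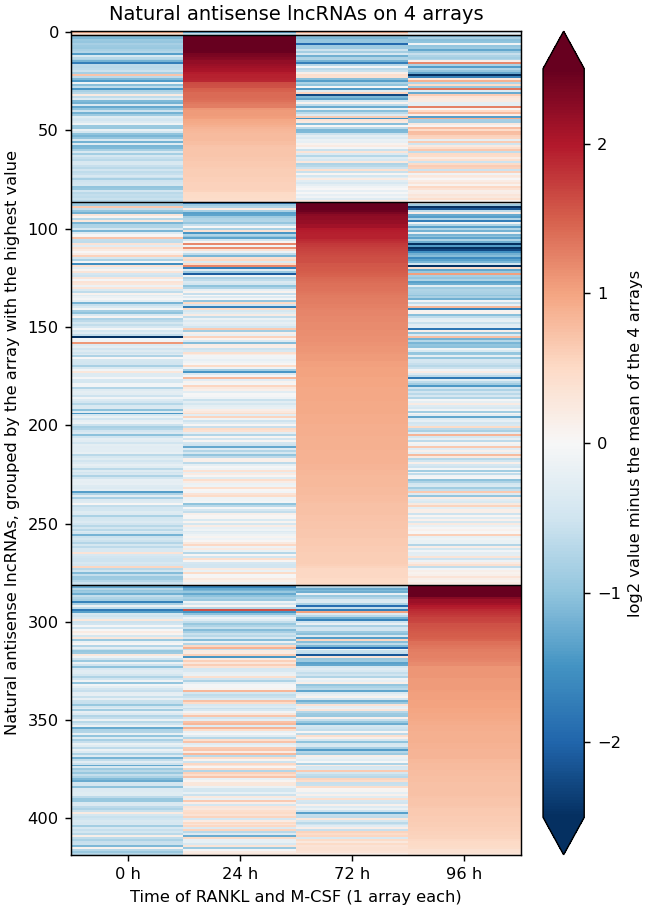
Each row is 1 of 419 natural antisense lncRNAs, each column 1 array, and the colour gives the log2 value minus the mean of the 4 arrays. Rows are grouped by the array with the highest value, and the group highest at 72 h, with 195 rows, is the largest. The list of rises at 96 h is held in part, so the group sizes follow the lists.

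Members listed as higher at 1 time were also read on the other arrays. These readings share the 0 h array, and many of these members were listed at more than 1 time, so they are in part the choice itself and nothing is read from them. Of the 219 members listed at 72 h, 29 were also listed at 96 h and 26 at 24 h. Their median change was 0.03 at 96 h over 175 measured, with 16 at least 2-fold higher, 12 of them listed there, and 16 lower. At 24 h it was 0.35 over 138 measured, with 8 higher, all listed there, and 3 lower. Of the 137 members listed at 24 h, 59 were also listed at 96 h. Their median change at 96 h was 0.74 over 106 measured, with 39 higher, 32 of them listed there, and 1, Gm15471, lower. At 72 h it was 0.34 over 72 measured. The 157 members listed at 96 h had a median change of 0.57 at 24 h over 105 measured, with 30 higher, all listed there, and of 0.10 at 72 h over 92. The 24 and 96 h arrays are those of barcode 2, and the part of the barcode in these medians was not tested. Both values of barcode 2 were above both of barcode 1 in 120 members, or 28.6%, beside 26.3% of all probes. The reverse held for 41 members, or 9.79%, beside 19.4%.

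The pairs of later arrays leave out the 0 h value. From 72 to 96 h, 138 of 396 measured members were at least 2-fold lower and 72 higher, where all probes gave 12.9% lower and 10.9% higher. The median change was -0.47. Within barcode 2, from 24 to 96 h, 59 of 375 were lower and 50 higher, where all probes gave 6.50% and 5.33%, and the median was -0.16. From 24 to 72 h, 82 of 359 were higher and 48 lower, where all probes gave 8.28% and 8.19%, and the median was 0.40. These counts rest on members that were picked for a high value at 24, 72 or 96 h, so that a fall from a high array is part of the choice. Fewer were picked at 96 h, where the list of rises is held in part, than at 72 h.

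Of the calls of the members named below, fewer stayed under the normexp alternative than under the scaling. Counted over all named members and in both directions, 30 were past 2-fold at 24 h, 38 at 72 h and 54 at 96 h. With the normexp correction of the median signal 19, 20 and 28 of these stayed past 2-fold, and changes moved by up to 1.97 log2 units. With scaling to the 75th percentile 29, 33 and 46 did. No called change turned its sign under either. The normexp alternative changed the correction, the signal and an added offset of 50 together, and their parts were not tested.

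At 24 h the member with the largest rise among those measured on both arrays was Gm17098, which overlaps the start of Aph1c, a gene for a subunit of the gamma-secretase complex, on chromosome 9. In order of time its log2 values were 6.10, 8.81, 6.07 and 5.99. The 24 h array stood alone above the other 3. The rise at 24 h was 2.71 ± 0.24 (error of the change from the scanner software, 1 array each), or 6.55-fold. The transcript 8030451A03Rik, inside Tnc, the gene of the matrix protein tenascin C, measured 5.51, 7.79, 5.99 and 5.99 in the same order, a rise of 2.29 ± 0.29 at 24 h.

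Of the next largest, AK133086, AK076251 and AK153643 rose by 1.96, 1.83 and 1.73 at 24 h. AK076251 lies inside Hs3st3b1, whose enzyme sulfates heparan chains. Its values at 72 and 96 h, 6.06 and 6.12, were above the 5.13 of 0 h by less than 2-fold. AK153643 went from 7.43 at 24 h to 5.00 at 72 h, which was below background, and to 5.08 at 96 h.

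Members that were below background at 0 h and clear at 24 h included 4921518J05Rik, inside Nckap5l, whose protein binds microtubules. It measured 4.31, 8.07, 5.29 and 5.12, which is at least 9.62-fold higher at 24 h. Gm15983 measured 3.99, 7.47, 4.27 and 3.50, and AK157092, inside the ubiquitin-conjugating enzyme gene Ube2e2, measured 3.79, 7.46, 2.67 and 4.54. They were at least 6.33-fold and at least 6.32-fold higher at 24 h, and Gm15983 was above background on no other array.

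At 72 h the largest rise was that of Gm17089, a transcript of 1394 bases inside Etv6, the gene of an ETS family repressor needed in blood cell formation. It lies at chr6:134233158-134243711 on the minus strand of GRCm38. Its values, in order of time, were 6.04, 6.84, 9.15 and 4.48. It rose by 3.11 ± 0.24 at 72 h, or 8.63-fold, and at 96 h it was lower than at 0 h by 1.55 ± 0.37, close to the floor of that array.

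Bach2os is read from within Bach2, the gene of a transcriptional repressor best known from B cells, at chr4:32559680-32571662 on the minus strand. Its values were 4.17, 3.33, 8.21 and 4.64, and it was below background at 0 and 24 h. It was at least 10.6-fold higher at 72 h, the largest bound of that time point, and at 96 h it lay just over the floor of that array.

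AK052417, a short transcript of 395 bases inside Apbb2, whose protein binds the amyloid precursor protein, was bright on every array, with 11.45, 10.05, 13.44 and 8.27. It rose by 1.99 ± 0.20 at 72 h, and fell by 1.40 at 24 h and by 3.18 at 96 h. Its 72 h value stood highest and its 96 h value lowest. AK016327, at the start of Dld, a gene of mitochondrial dehydrogenase complexes, gave 5.55, 4.42, 7.81 and 5.69, below background at 24 h. Gm15646 gave 5.04, 4.12, 7.21 and 3.62, below background at 24 and 96 h, and AK006576 measured 5.72, 6.56, 7.78 and 4.58. Each of these was highest at 72 h.

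The second largest bound at 72 h was that of AK084265, which measured 4.69, 4.86, 8.01 and 5.75 and was below background at 0 and 24 h. It was at least 9.23-fold higher at 72 h. AK156916 ends inside Mef2c, the gene of a MADS-box transcription factor, and measured 4.39, 5.69, 6.79 and 3.83, at least 3.97-fold higher at 72 h.

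At 96 h the largest bound was that of AK052226, inside Pms1, a gene of the mismatch repair family. Its first 3 values were at or under 3.56 and below background, and the 96 h array gave 7.93, at least 8.73-fold higher than at 0 h. Gm26702 measured 3.21, 2.65, 2.67 and 7.17, and AK015121, at the start of the intermediate filament gene Synm, measured 2.79, 2.65, 2.67 and 7.02. These were at least 5.13-fold and at least 4.63-fold higher at 96 h. All 3 share the pattern of a single array above background, and no second probe of them was listed.

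Among members measured on both arrays, Gm12256, inside the zinc finger gene Zfp39, rose by 2.07 ± 0.27 at 96 h, with 5.74, 6.99, 5.32 and 7.81. AK039647, inside Kazald1, a gene of a secreted protein, rose by 2.06 ± 0.34 with 5.62, 5.16, 5.92 and 7.69. 1700095B10Rik rose by 1.96 ± 0.21, with values between 7.74 and 8.07 on the first 3 arrays and 9.96 at 96 h. AK044464, inside Neurl1a, rose by 1.70 at 96 h and by 1.42 at 24 h, both arrays of barcode 2, and changed by -0.22 at 72 h. 1700091E21Rik rose by 2.15 at 96 h, from 5.87 to 8.03.

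**Figure D3:**
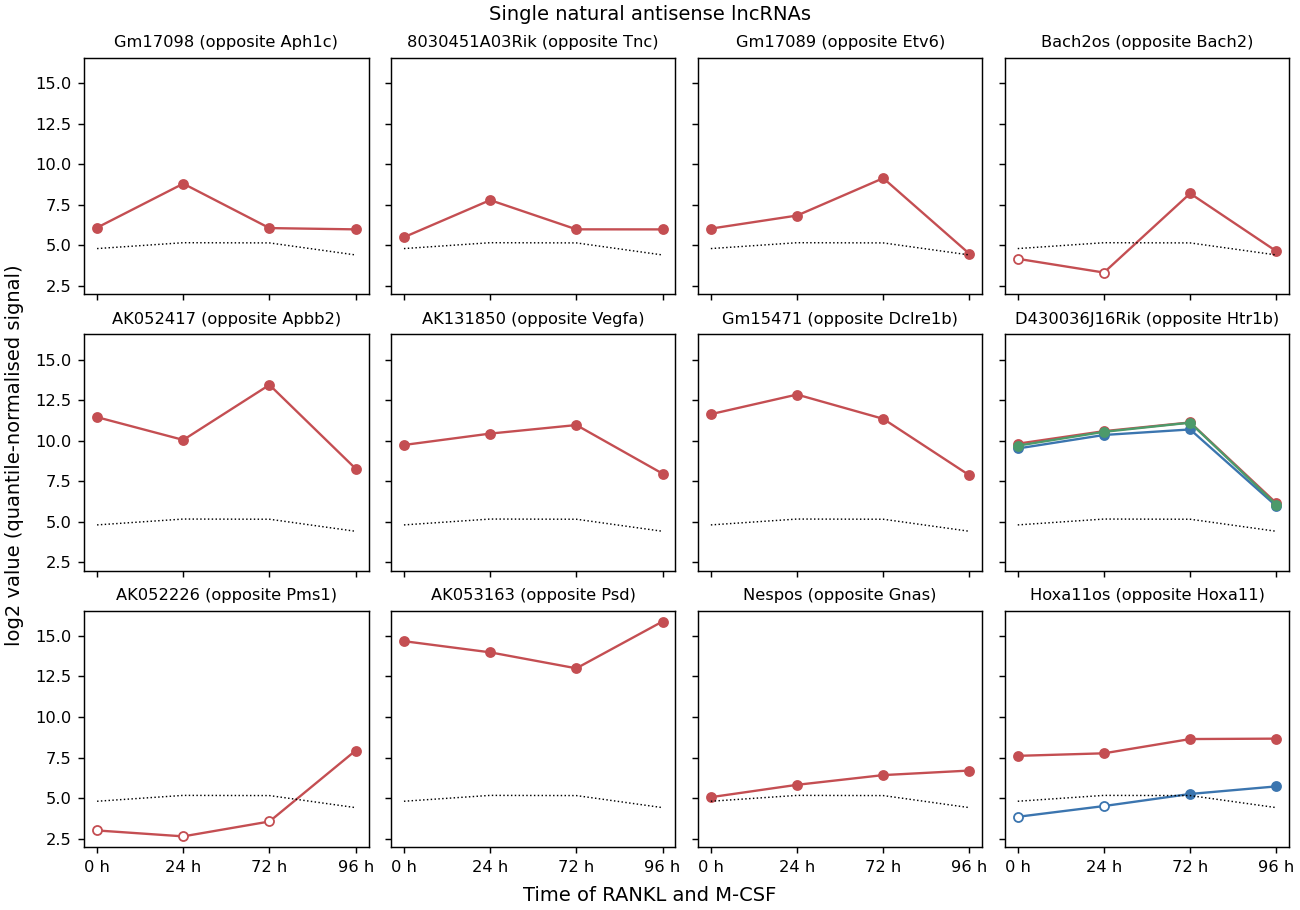
Log2 values of 12 natural antisense lncRNAs on the 4 arrays, equally spaced, with the gene on the other strand in brackets. Filled points were well above background, open points were not, the dotted line is the floor of each array, and colours are different probes of 1 symbol. The 3 D430036J16Rik probes lie on top of each other and drop at 96 h, and Bach2os is clear of the floor at 72 h alone.

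The deepest falls were at 96 h. Gm15471, inside Dclre1b, the gene of a nuclease that protects chromosome ends, measured 11.63, 12.84, 11.35 and 7.86 in order of time. It fell by 3.77 at 96 h, after a rise of 1.21 at 24 h. In the lists its probe carries a second RefSeq transcript as a further match. D430036J16Rik starts inside Htr1b, a serotonin receptor gene, and its 3 probes measured 9.81, 10.59, 11.12 and 6.15, then 9.52, 10.35, 10.69 and 5.97, then 9.69, 10.54, 11.11 and 6.05. The falls at 96 h were 3.67, 3.55 and 3.64 on the log2 scale, and the rises at 72 h 1.31, 1.17 and 1.42. The probes share up to 55 bases, so they count as repeated readings of 1 RNA and not as 3 lncRNAs.

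AK131850, inside Vegfa, the gene of the vascular endothelial growth factor, measured 9.73, 10.44, 10.96 and 7.97. It rose by 1.23 ± 0.20 at 72 h and fell by 1.77 at 96 h. AK080039 starts inside Nedd9, the gene of a scaffold protein of focal adhesions, and measured 9.43, 7.26, 9.47 and 7.20. It was low on both arrays of barcode 2, with falls of 2.17 at 24 h and 2.23 at 96 h, and level on those of barcode 1. AK006171, inside Fam78a, measured 13.11, 10.84, 13.06 and 11.66, also lower on both arrays of barcode 2.

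The lists as held gave 12 members as lower at 24 h and 1 at 72 h, with many of the paper's falls missing. Of the 12, AK145113, AK149453, Gm13446, Gm16263 and Gm26883 were below background on both arrays of that comparison and have no measured change. Gm12300 by 1 of its probes, and Gm13713 at the end of Lrrc55, were below background at 24 h, with bounds of -1.07 and -0.96. Gm26723 measured 10.40, 9.34, 10.29 and 9.77 and fell by 1.06 at 24 h. AK134688, inside the mitochondrial elongation factor gene Gfm2, measured 10.79, 9.71, 10.32 and 12.34, a fall of 1.08 at 24 h and a rise of 1.56 ± 0.20 at 96 h. The member listed at 72 h, 3110045C21Rik at the end of the collagen receptor gene Ddr2, measured 6.61, 6.86 and 7.04 on the other arrays and was below background at 72 h.

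In all, 21 members of 19 symbols were past 2-fold higher at 1 later time point and past 2-fold lower at another, beside 1.14% of all probes. In 16, of 14 symbols, the value was higher at 72 h and lower at 96 h (0.404% of all probes). The 3 D430036J16Rik probes are among both numbers. The reverse order, lower at 72 h and higher at 96 h, was seen in AK053163 and Gm15726 (0.557%). Every array measured 19 of the 21 above background. The choice of members for a rise bears on these counts too. AK053163, inside Psd, the gene of an exchange factor of small GTPases, was among the brightest members with 14.68, 13.99, 13.00 and 15.89, a fall of 1.67 at 72 h and a rise of 1.21 ± 0.20 at 96 h. Gm15726, inside the ubiquitin ligase gene Mid1, measured 6.63, 6.02, 5.52 and 8.09.

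The brightest member by its mean over the arrays was Gm16201. It lies at chr7:139950440-139978977 and holds Spef1l on the other strand. It also overlaps Adam8, the gene of a surface metalloprotease that osteoclasts are known to make, by a stretch no longer than that of Spef1l. Its values were 14.63, 14.76, 14.15 and 15.70, a rise of 1.08 ± 0.20 at 96 h. 2310061J03Rik, inside the zinc finger gene Zbtb11, measured 13.10, 13.40, 14.19 and 13.43 and was highest at 72 h. Gm20713, inside the glypican gene Gpc5, measured 12.62, 13.74, 12.61 and 13.79. Its arrays of barcode 2 lay above those of barcode 1 by more than 1 log2 unit. AK049961 was higher at all 3 times, with 10.32, 11.45, 11.70 and 11.34.

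Some members lie opposite genes of osteoclast formation, bone resorption, the cytoskeleton, the homeobox clusters or imprinting. Of 74 genes listed for osteoclast differentiation and RANKL signalling, 3 had a member on the other strand, of 41 for resorption and fusion 1, of 25 for the actin ring 1, of 63 homeobox genes 3, and of 30 imprinted genes 2. In all, 358 genes had a member on the other strand. The share over all genes was not worked out, so nothing is read from these counts. Gm14023 lies at the end of Il1a, the gene of the cytokine interleukin 1 alpha. It measured 5.05, 5.39 and 6.05 at 0, 24 and 96 h and was below background at 72 h. The change at 96 h was 1.00 ± 0.35. AK077981, inside the actinin gene Actn4, was above background at 96 h alone with 5.24.

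1810062O18Rik overlaps Usp54 and reaches Ppp3cb, a catalytic subunit of calcineurin, the phosphatase that activates NFAT factors. Its probes did not move together. The pair that shares 51 bases measured 8.47, 9.21, 8.35 and 9.67, and 8.75, 8.46, 8.91 and 10.03, with rises of 1.19 and 1.28 at 96 h. The third probe, of another isoform and which the lists give a further matching transcript, measured 13.60, 12.57, 13.61 and 12.45 and fell by 1.15 at 96 h. No single direction can be given for this symbol.

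Hoxa11os is the antisense transcript of Hoxa11, a homeobox gene of limb and uterus patterning. Its brighter probe measured 7.60, 7.76, 8.64 and 8.67, with rises of 1.04 ± 0.21 at 72 h and 1.06 ± 0.21 at 96 h. The other probe, on a different isoform, measured 3.85, 4.51, 5.25 and 5.72 and was above background at 72 and 96 h alone. Both probes had their higher values on the last 2 arrays. 1700109F18Rik, which holds Hoxd8 and overlaps Hoxd3 on the other strand, was above background at 96 h alone, at 4.66.

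Nespos starts inside the imprinted Gnas locus, which encodes the stimulatory G protein alpha subunit. Its values were 5.06, 5.82, 6.42 and 6.70, each array above the one before. It was higher than at 0 h by 0.76 at 24 h, under the limit, by 1.36 at 72 h and by 1.64 ± 0.34 at 96 h. Igf2os, opposite the imprinted growth factor gene Igf2, was above background at 72 h alone, at 5.67. Of the other symbols that end in os, Rptoros, inside Rptor, the gene of a subunit of the growth-controlling complex mTORC1, measured 6.86, 7.84, 6.90 and 8.08 and rose by 1.22 ± 0.22 at 96 h. Bcas1os2 was above background at 24 and 72 h, with 5.40 and 5.18. Tmem51os1 was so at 72 and 96 h, with 5.38 and 4.66, and Tspan2os at 24 h alone, with 5.63. Of the 9 probes of os symbols, 0 were past 2-fold at 24 h, 3 were higher at 72 h (Bach2os, Nespos and 1 Hoxa11os probe) and 3 at 96 h (Nespos, Rptoros and the same Hoxa11os probe).

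The 7 members named as transcribed ultraconserved regions are short, with a median length of 232 bases, and were dim except for uc.420 and, less bright, uc.480. The first lies inside Ddx5, an RNA helicase gene, and measured 8.79, 7.71, 9.93 and 7.52. It was higher than at 0 h by 1.14 at 72 h and lower by 1.07 and 1.27 at 24 and 96 h. uc.480 measured 5.97, 5.16, 7.43 and 4.59 and was below background at 24 h, with a bound of -0.80. It was higher than at 0 h by 1.46 at 72 h and lower by 1.38 at 96 h. uc.129, inside the splicing factor gene Mbnl1, was clear at 72 h with 6.51.

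Of the 420 members, 342 overlapped a protein-coding RefSeq gene whose strand is known and opposite, 318 of them 1 such gene and 24 several. In all, 358 genes were covered. The member lay inside the gene in 161 cases, both started in overlap, head to head, in 105, both ended in overlap in 65, and the member held the whole gene in 11. Where a member overlapped several genes, the gene with the longest overlap was used for these positions. The remaining 78 had no such gene in the table, which lacks the strand of some genes. The probe itself lay within the span of the gene in 211 cases, across one end in 42 and outside in 89. For the head-to-head members it lay outside the gene in 69 of 105.

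Over all probes above background on at least 1 array, 28.9% were highest at 72 h and 32.6% at 96 h. Of the head-to-head members, 61 of 105 were highest at 72 h and 27 at 96 h. Their median change was 1.13 at 72 h and 0.21 at 96 h. Of the members inside a gene, 62 of 161 were highest at 72 h and 60 at 96 h, with median changes of 0.72 and 0.52. Those whose ends overlap had medians of 0.87 and 0.54. Lists hold a related class, the bidirectional lncRNAs, which start near a gene and run away from it. Among its 216 members, 128 were highest at 72 h, with median changes of 1.14 at 72 h and 0.14 at 96 h. The 1934 intergenic lncRNAs had 609 highest at 72 h and medians of 0.58 and 0.51. All these classes were chosen by change, from lists of which that of rises at 96 h is held in part. How many of each class came from each list was not compared, and the differences between classes were not tested. Nothing is read from them.

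**Figure D4:**
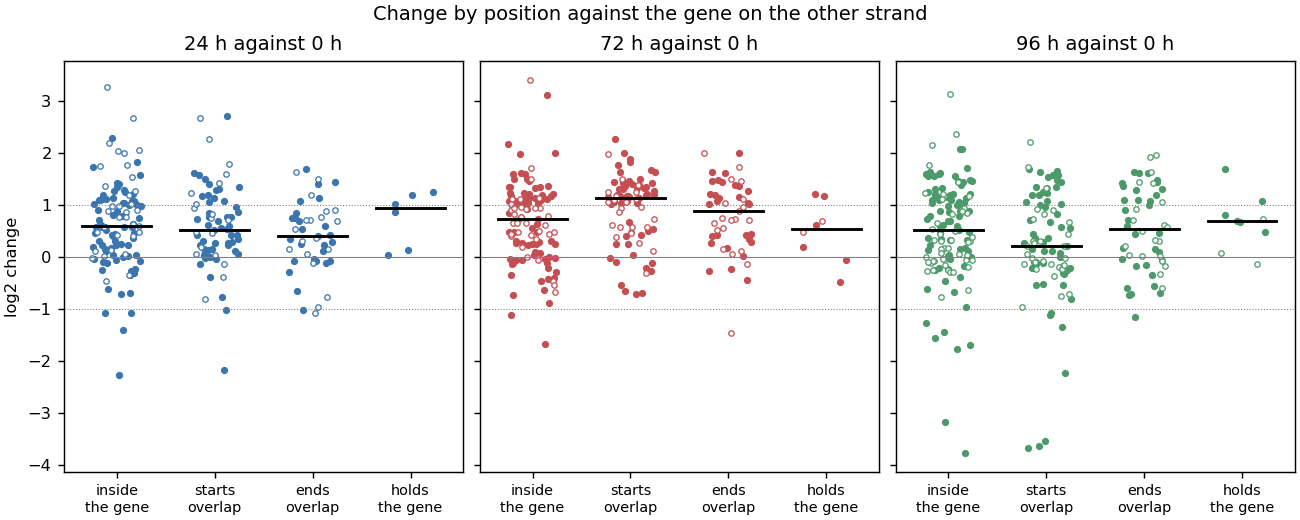
Each point is 1 natural antisense lncRNA, placed by its position against the gene on the other strand, and the vertical axis gives the log2 change against 0 h at 24, 72 and 96 h. Open points are bounds with 1 array at the floor, black lines are medians, and dotted lines mark 2-fold. The median of members whose start overlaps the start of the gene is 1.13 at 72 h and 0.21 at 96 h. The members were chosen by change, and differences between positions were not tested.

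Promoters from RefSeq (GRCm38.p6) were matched by symbol for 77 of 405 symbols, and in 49 the start lay within 100 bases of the start of a member. Their median GC content was 57.3%, against 52.7% over 32851 promoters, and they held a median of 15 CpG pairs against 7. Both strands were searched for 4 motifs. The letters TATAAA were found in 2 of 49 (13.6% of all promoters), the AP-1 motif TGANTCA in 2 (7.81%), the PU.1 motif GAGGAAGT in 1 (3.20%) and the E-box CACGTG in 6 (7.15%). The promoter of Rptoros is shown because it holds an E-box, in capitals, and that of D430036J16Rik because its 3 probes fell together and it lies inside Htr1b, with none of these motifs. They run from 250 bases before to 50 after the start, at chr11:119834316-119834615 on the minus strand and chr9:81631680-81631979 on the plus strand.
Rptoros: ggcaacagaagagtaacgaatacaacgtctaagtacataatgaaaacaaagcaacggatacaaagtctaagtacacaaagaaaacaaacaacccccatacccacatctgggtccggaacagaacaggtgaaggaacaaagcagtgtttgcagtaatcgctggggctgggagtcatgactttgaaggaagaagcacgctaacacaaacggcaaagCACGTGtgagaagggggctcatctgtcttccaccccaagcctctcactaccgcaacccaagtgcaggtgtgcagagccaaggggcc
D430036J16Rik: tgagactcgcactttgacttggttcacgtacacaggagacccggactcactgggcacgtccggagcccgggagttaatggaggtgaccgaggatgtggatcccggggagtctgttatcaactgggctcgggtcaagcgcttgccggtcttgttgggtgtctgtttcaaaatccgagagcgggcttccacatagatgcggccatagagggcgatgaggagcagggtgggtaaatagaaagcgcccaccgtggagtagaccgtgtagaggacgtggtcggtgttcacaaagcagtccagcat

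For 19 pairs of a member and a transcript on the other strand, both were in the lists, which allows the changes on the strands to be set side by side. The listed transcripts on the other strand are themselves entries of the lncRNA lists. In 17 pairs they are classed as sense-overlapping an exon of a gene, and where they carry its symbol they are called its sense lncRNA below. The mRNAs of these genes were not read here, because no file pairs mRNA probes with names. Levels of different probes are not compared. No 2 probes of a pair shared more than 8 bases in a row. In 9 of the 19 pairs both strands were highest on the same array. Both were chosen by change against the same 0 h array, so this count is a description.

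AK133228, opposite Fyb, the gene of an adaptor protein of immune cells, measured 7.18, 7.75, 8.54 and 7.96, and the Fyb sense lncRNA measured 11.85, 11.83, 13.83 and 12.68. Both were highest at 72 h. 1700071M16Rik is read from within Pla2g7, the gene of a phospholipase that inactivates platelet-activating factor. It was below background until 72 h and measured 6.95 at 96 h, at least 4.43-fold higher than at 0 h, while the Pla2g7 sense lncRNA measured 5.67, 5.87, 5.35 and 6.94. B230206H07Rik measured 5.87, 6.95, 6.27 and 6.76, and the sense lncRNA of Eps8l2, a gene of an actin regulator, 5.66, 6.91, 6.34 and 6.65. Both were highest at 24 h, with rises of 1.08 and 1.25.

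2610027K06Rik was above background at 24, 72 and 96 h, with 5.48, 5.53 and 5.11. The Bcas3 sense lncRNA measured 8.33, 7.12, 8.64 and 8.19, so both were highest at 72 h, while at 24 h the Bcas3 value was the lowest of its 4. AK031914 with 7.76, 8.41, 8.78 and 6.94 and the Chrac1 sense lncRNA with 5.90, 6.55, 7.24 and 6.47 were highest at 72 h. So were AK133172 (11.12) and AK138797 (10.90), whose counterparts AK047502 and AK083815 reached 5.60 and 6.89. At 96 h AK053128 was highest with 10.72, after 9.62, 9.55 and 10.04. The sense lncRNA of Pde8b, a phosphodiesterase gene, measured 6.22 and 6.40 at 24 and 96 h and was below background at 0 and 72 h. 9130019P16Rik (8.42) and AK047300 (6.95) were both highest at 24 h.

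Other pairs parted. Gm15471 fell to 7.86 at 96 h. The Dclre1b sense lncRNA, dim throughout, measured 5.39, 5.28, 6.80 and 5.17 and was below background at 24 h. The Hoxa11 sense lncRNA was above background at 24 h alone, at 6.14, and Hoxa11os was highest at 96 h. Gm13562 measured 5.26, 5.22, 6.62 and 6.74, and the sense lncRNA of Card9, an adaptor of myeloid immune receptors, measured 7.94, 8.28, 9.11 and 8.06, highest at 72 h. 1700094C10Rik was highest at 24 h with 7.74 and the Usp46 sense lncRNA at 96 h with 6.54. AK086793 was highest at 72 h with 5.22 and the Fam219a sense lncRNA at 24 h with 8.17. AK029116 was highest at 96 h with 7.33 and the Mpi sense lncRNA at 72 h with 6.02.

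**Figure D5:**
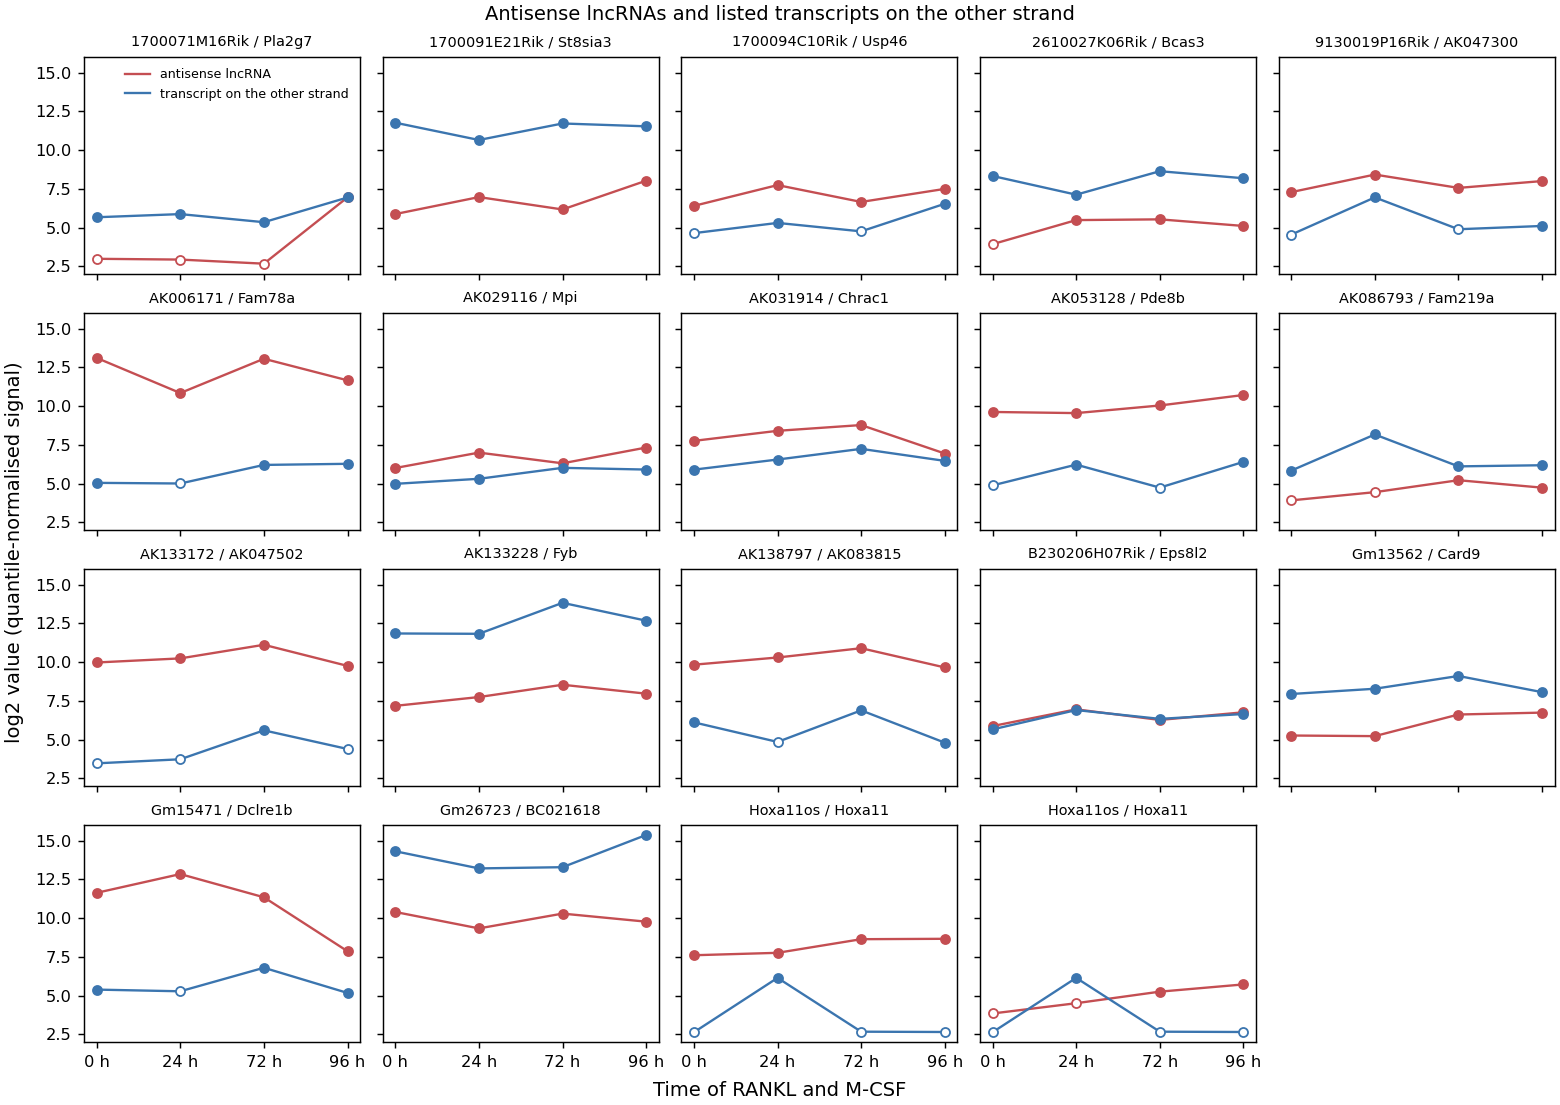
Log2 values on the 4 arrays, equally spaced, of 19 natural antisense lncRNAs (red) and of a listed noncoding transcript on the other strand (blue). Filled points were well above background and open points were not. In the Fyb and Pla2g7 pairs both lines are highest on the same array, and in the Dclre1b pair the antisense line falls at 96 h while the other is highest at 72 h.

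Across the 12 symbols with several probes, some agreed and others did not. The D430036J16Rik probes agreed at every time point. The Gm12300 probes, on different isoforms opposite the myosin gene Myh1, measured 6.50, 7.95, 7.97 and 8.11, and 6.24, 4.89, 6.67 and 7.60, so they disagreed at 24 h and both rose at 96 h. The Gm16136 probes measured 6.42 and 6.53 at 0 h, and the first fell by 1.51 at 96 h while the other rose by 1.50. A230072E10Rik, opposite the kinase gene Wnk3, had a bright probe with 10.29, 11.69, 9.56 and 11.91, highest at 96 h. Of its 2 dim probes 1 was highest at 72 h with 6.23, and the other was above background at 96 h alone with 5.65.

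4930506C21Rik, at the end of Mpc1, a gene of the mitochondrial pyruvate carrier, measured 7.65, 9.05, 7.38 and 9.27 by its brighter probe, with rises of 1.40 at 24 h and 1.62 at 96 h. Its other probe was above background at 72 h alone, at 5.45. E030013I19Rik, at the start of the integrin gene Itga8, measured 5.05, 5.60, 4.85 and 6.58, and its other probe was above background at 96 h alone, at 4.66. The Gm13068 probes, inside the carrier gene Slc25a33, were both highest at 72 h, at 7.36 and 5.21. The Gm16596 probes, which share 51 bases, were above background at 96 h alone, at 4.73 and 5.52. The dimmer Gm13562 probe was above background at 72 and 96 h, with 5.28 and 5.97, and the dimmer 1700091E21Rik probe too, with 5.64 and 4.61. For symbols with 1 probe, other isoforms were not measured here.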

How the data were processed

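RNA from 4 time points was hybridised to 1-colour Agilent slides with the mouse lncRNA design of Arraystar, 1 array each. The authors scanned them and extracted signals with Agilent Feature Extraction, version 11.0.1.1 per the file headers. The deposited spot intensity values (processed, median and local background) carry the authors' background subtraction only in the processed signal. A second deposited file holds the authors' log2 values of 60804 probes after quantile normalization in GeneSpring. For members it differed from quantile normalization of the processed signals here by at most 0.0312, and it gave the values in the text. The software's flags for signal above background and for outlier spots are a deposited yes or no score per spot. Mtag2 at 96 h, marked as an outlier spot, was left out, so it has 3 values and enters no change at 96 h.

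A probe entered a comparison when well above background on 1 of the 2 arrays, with the floor raised as described, and was counted past 2-fold. Names, classes, probe sequences and coordinates came from the lists, and their fold changes were not used. The lists are held incompletely, with 5831 entries in all, of them 1943 of rises and 0 of falls at 96 h. For 24 and 72 h they hold fewer falls than the paper reports. Starts in the lists are counted from 0: of 113 members with a RefSeq gene of the same symbol, 52 starts matched after adding 1 and 0 without, so 1 was added, and the build is taken as GRCm38. Members, gene lists, motifs and the choice of named lncRNAs were made with earlier results of these data known. Named were, for each time point, the 5 largest rises measured on both arrays and the 3 largest bounds, all symbols ending in os or with several probes, the brightest 5, entries of falls, members higher at all times or in opposite directions, members opposite a listed gene or transcript, and those at the limits. Outside this rule, uc.129 and the 4 members higher at both 24 and 72 h were named after their values were seen.

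Of the probe annotations, 13 members carry a note of a second match. Python 3.11.15 with pandas 2.3.3 and R 4.3.3 with limma 3.58.1 were used. The calling step was run on simulated data whose changes were larger than the limit, which gives no check of changes near it. With 1 array per time point no test was run, and precision is limited by that number. Alternatives were other scalings, background correction, filters, floor, limit and member sets. One pair of transcripts on opposite strands is not reported here.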

Additional observations from a re-analysis of the deposited data

Results flagged for a closer look

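The contrast against 0 h went in opposite directions at 2 later time points, past 2-fold each way, in 21 members. The difference was not tested, since each time point has 1 array. Values are log2 changes against 0 h. Higher at 72 h and lower at 96 h were Gm17089 (3.11 and -1.55), AK006576 (2.06 and -1.13), AK052417 (1.99 and -3.18, and -1.40 at 24 h), AK029904 (1.87 and -1.08, and -1.01 at 24 h), uc.480 (1.46 and -1.38) and AK144457 (1.46 and -1.35). The same order was seen in AK131850 (1.23 and -1.77), AK040358 (1.19 and -1.12), uc.420 (1.14 and -1.27, and -1.07 at 24 h), AK053706 (1.10 and -1.13), Gm16136 (1.08 and -1.51), AK085378 (1.06 and -1.70) and AK017432 (1.05 and -1.38). The 3 D430036J16Rik probes changed by 1.31 and -3.67, 1.17 and -3.55, and 1.42 and -3.64.

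Lower at 72 h and higher at 96 h were AK053163 (-1.67 and 1.21) and Gm15726 (-1.11 and 1.45). Lower at 24 h and higher at 96 h were AK134688 (-1.08 and 1.56) and 1 Gm12300 probe (-1.07 and 1.36). Gm15471 was higher at 24 h (1.21) and lower at 96 h (-3.77). The 0 and 72 h arrays share barcode 1 and the 24 and 96 h arrays barcode 2, and the part of the barcode in these values was not tested.

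The left-out Mtag2 spot at 96 h carried a log2 value of 15.25 in the table, where the same probe gave 4.87 at 0 h. The scanner software marked this spot as an outlier, no other spot of a member was so marked, and the value was used in no result.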

How the results depend on the processing

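Of 70 counts under 9 alternatives, 49 stayed within 1.5 times the reported count. Counts are given as higher and lower members at 24, 72 and 96 h. With normexp on the median signal, chosen after seeing the data because the planned mean signal was not run for want of that column, 27, 53 and 38 were higher, 1 was lower at 72 h, 9 were lower at 96 h and 1 was higher at all times. With a 4-fold limit 9, 6 and 7 were higher, 2, 0 and 6 lower, and 0 higher at all times. Without a floor 175 were higher at 96 h, 14 and 9 lower at 24 and 72 h, and 7 higher at all times. With members above background on both arrays, 55 were higher at 24 h, and of the 192 measured on all 4, 101 were highest at 72 h, where fewer members entered. Scaling to the 75th percentile gave 6 lower at 72 h, and scaling to the median of probes measured on all arrays gave 5. Normexp was run with an offset of 50 alone, and the cause of the moved counts was not tested. No paired analysis was possible because each time point has 1 array. Values near the floor of an array limit the dim members to bounds.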
